A study of Rattus norvegicus with 6 samples.

Results

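Monoamines are the small transmitters dopamine, noradrenaline, adrenaline, serotonin and histamine, and this report follows the mRNAs of 7 rat genes that make, store or break down the first 4 of them. The genes listed were Th, Tph1 and Ddc for synthesis, Slc18a1 and Slc18a2 for storage, and Maoa and Maob for breakdown. Of these 7 genes, 6 had at least 1 probeset (a set of probes for one transcript) with a single gene symbol, 9 probesets in all, among 12603 genes measured by 17978 such probesets. Tph1, tryptophan hydroxylase 1, had none, so that its mRNA was not analysed here. The pathway was chosen by the values of Maob and Slc18a1, which were both lower in cells given Dox and differed in cells also given the inhibitor. The values of these 2 genes are therefore given as a description, with no test. The other members were added for their function, with earlier results of these data known, and were tested.

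The cells were a single clone of INS-1, β-cell-like cells from a rat insulinoma, in which doxycycline (Dox) switches on a GFP fusion of insulin 2 that bears the Akita mutation, C96Y. Mutant proinsulin misfolds in the endoplasmic reticulum (ER) and activates the unfolded protein response. The groups were cells given Dox at 4 μg/ml with 5 μM 4μ8c, which blocks the endoribonuclease of the ER stress sensor IRE1, cells given Dox alone, and untreated cells, each for 48 h and each on 1 array in 2 independent experiments. All 6 arrays came from the clone with the transgene. Neither cells without it nor cells that received 4μ8c but no Dox were analysed here. The paper also treated cells with 4μ8c alone and reports no expression changes of 1.5 fold or more from it. Those cells are not among these 6 arrays. On these arrays, a direct effect of either drug and an effect through mutant proinsulin or IRE1 cannot be told apart.

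Monoamine synthesis starts with a hydroxylase that uses tetrahydrobiopterin as cofactor, tyrosine hydroxylase (Th) for catecholamines or tryptophan hydroxylase (Tph1) for serotonin. The decarboxylase Ddc then makes dopamine or serotonin. The vesicular monoamine transporters VMAT1 (Slc18a1) and VMAT2 (Slc18a2) exchange protons for amines and load them into secretory granules. Amines left in the cytosol are oxidised by the monoamine oxidases A (Maoa) and B (Maob) of the outer mitochondrial membrane. β-cells are known to hold dopamine and serotonin in their granules together with insulin.

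The deposited values are log2 signals relative to a zero point of each probeset, called centred log2 signals here, and a value of 0 is not an absent transcript. In experiment 1 the zero point was the middle of the 3 arrays in 100% of probesets. In experiment 2 this was so in 0.84%. Some values there were of equal size and opposite sign, such as those of Maob, 0.0381 in untreated cells and -0.0381 with Dox+4μ8c. What the zero point was in experiment 2 was not worked out here. Arrays are therefore compared within an experiment only. Levels, and whether a marker or a member is expressed at all, cannot be read from them, and fewer cells with a transcript and less of it per cell cannot be told apart. In experiment 1, 25.5% of the 25476 probesets had the same value on all 3 arrays and a further 31.7% on 2 of them, against 0.63% with any tie in experiment 2. Several small differences of the members were exactly 0 in experiment 1 for this reason. A log2 change is a difference between 2 arrays within an experiment, given as the mean of the 2 experiments. Its standard error (SE) and Benjamini-Hochberg adjusted p were estimated by limma in a model with groups and experiment. Passing the test means an adjusted p below 0.05 among all 12603 genes. Dox replicate 2 had the widest spread of values, with an SD over all probesets of 0.18, compared with 0.05 to 0.12 on the other 5 arrays. The 5′ minus 3′ gap of the 4 poly-A spike-ins, relative to untreated cells of the same experiment, was lower by a median of 0.40 on that array and 0.28 on Dox+4μ8c replicate 2 (log2), and by 0.09 and 0.02 on Dox and Dox+4μ8c replicate 1. The part of these differences in the results was not tested.

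The RefSeq table (build GRCr8) held promoters for 6 of the 7 members, and Slc18a1 was not among them. The 250 bases before the start site are shown for Maob, which was lower with Dox, for its paralogue and neighbour on chromosome X, Maoa, which did not pass the test, and for Gch1 of the cofactor pathway, which fell with Dox and with Dox+4μ8c. Capitals mark the GC box, GGGCGG on either strand, and overlapping matches were counted separately.
Maob (chrX:8490155-8490404, plus strand): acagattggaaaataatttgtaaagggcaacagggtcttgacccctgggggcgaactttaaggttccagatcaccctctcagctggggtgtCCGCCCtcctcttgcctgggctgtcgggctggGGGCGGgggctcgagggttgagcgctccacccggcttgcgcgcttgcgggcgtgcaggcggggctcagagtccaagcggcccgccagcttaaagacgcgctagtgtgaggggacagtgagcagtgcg
Maoa (chrX:8681373-8681622, minus strand): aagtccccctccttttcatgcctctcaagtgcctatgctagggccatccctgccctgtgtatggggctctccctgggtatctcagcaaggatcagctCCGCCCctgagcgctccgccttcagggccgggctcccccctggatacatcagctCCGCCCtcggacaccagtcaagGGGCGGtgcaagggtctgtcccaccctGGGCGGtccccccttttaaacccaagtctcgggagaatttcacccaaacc
Gch1 (chr15:22917413-22917662, minus strand): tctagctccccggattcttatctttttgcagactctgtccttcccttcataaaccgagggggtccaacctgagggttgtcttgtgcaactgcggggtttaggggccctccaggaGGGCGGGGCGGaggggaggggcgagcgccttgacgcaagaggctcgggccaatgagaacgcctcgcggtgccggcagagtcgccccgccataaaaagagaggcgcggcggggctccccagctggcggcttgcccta

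The GC box, which zinc finger factors such as Sp1 bind, was found 2 times before Maob, 4 times before Maoa and 2 times, overlapping by 1 base, before Gch1, and at least once in 32.39% of 27457 promoters. None of the 3 windows held the ER stress element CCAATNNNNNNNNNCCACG (0.08% of all promoters), the unfolded protein response element TGACGTGG (0.55%), the cyclic AMP response element TGACGTCA (1.7%) or the CHOP-ATF4 type site TGATGNAA (3.27%), on either strand. The cyclic AMP response element was found once before Th and once before Slc18a2. A match or its absence describes these letters in this window and nothing about binding.

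Slc18a1, the VMAT1 gene, was lower in both groups given Dox. Its centred log2 signal was -0.12 and -0.59 with Dox+4μ8c, 0.00 and -0.34 with Dox, and 1.13 and 0.69 in untreated cells, in experiments 1 and 2 in that order. In each experiment untreated cells had the highest value and Dox+4μ8c cells the lowest. The log2 change with Dox was -1.13 and -1.03 in experiments 1 and 2, a mean of -1.08 (SE 0.05), or 2.12 fold lower. The change with Dox+4μ8c against untreated was -1.25 and -1.27, a mean of -1.26 (SE 0.05), or 2.40 fold lower. Slc18a1 thus held the third lowest of 12603 changes with Dox and the second lowest with Dox+4μ8c. Between Dox+4μ8c and Dox it differed by -0.12 and -0.24, a mean of -0.18 (SE 0.05), so that its value was slightly lower with the inhibitor in each experiment.

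Maob, monoamine oxidase B, was lower with Dox and near untreated cells when 4μ8c was present. Its centred log2 signal was 0.00 and -0.04 with Dox+4μ8c, -0.50 and -0.58 with Dox, and 0.11 and 0.04 in untreated cells. In each experiment untreated cells were highest and Dox cells lowest, with Dox+4μ8c cells just below untreated. The change with Dox was -0.60 and -0.62, a mean of -0.61 (SE 0.05), or 1.53 fold lower, just past 1.5 fold. At least 1.5 fold lower with Dox were 22 genes, 0.175% of those measured, and they included both Maob and Slc18a1, which were picked from them. The genes nearest to that threshold were Slc7a14 and Plppr5 inside it, both at -0.59, and St18 and Car8 outside it, both at -0.58. With Dox+4μ8c Maob was at -0.11 and -0.08 against untreated, a mean of -0.09 (SE 0.05). The difference between Dox+4μ8c and Dox was 0.50 and 0.54, a mean of 0.52 (SE 0.05), and 7 genes had a larger positive one.

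The 2 genes, picked for differing in cells also given the inhibitor, differed in what remained of the Dox change when IRE1 was inhibited. With Dox+4μ8c, 14.9% of the log2 fall of Maob was left (17.6% and 12.4% in experiments 1 and 2), compared with 116.7% for Slc18a1 (110.5% and 123.5%). Subtracting the change of Slc18a1 from that of Maob on the same arrays gave 0.62 and 0.78 for Dox+4μ8c against Dox, a mean of 0.70 ± 0.12 (SD over the 2 experiments). For Dox+4μ8c against untreated it gave 1.14 and 1.20, and for Dox against untreated 0.53 and 0.42. Maob was therefore above Slc18a1 in every comparison and experiment. The gap for Dox+4μ8c against untreated is the sum of the other 2, so that it had to be the widest once both were positive. Both genes were picked for these values, so that the gaps are a description only. The 3 comparisons share arrays, and each gene was read by 1 probeset (1368514_at for Maob and 1387999_at for Slc18a1), so that no second probeset on the array bears on either pattern.

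**Figure D1:**
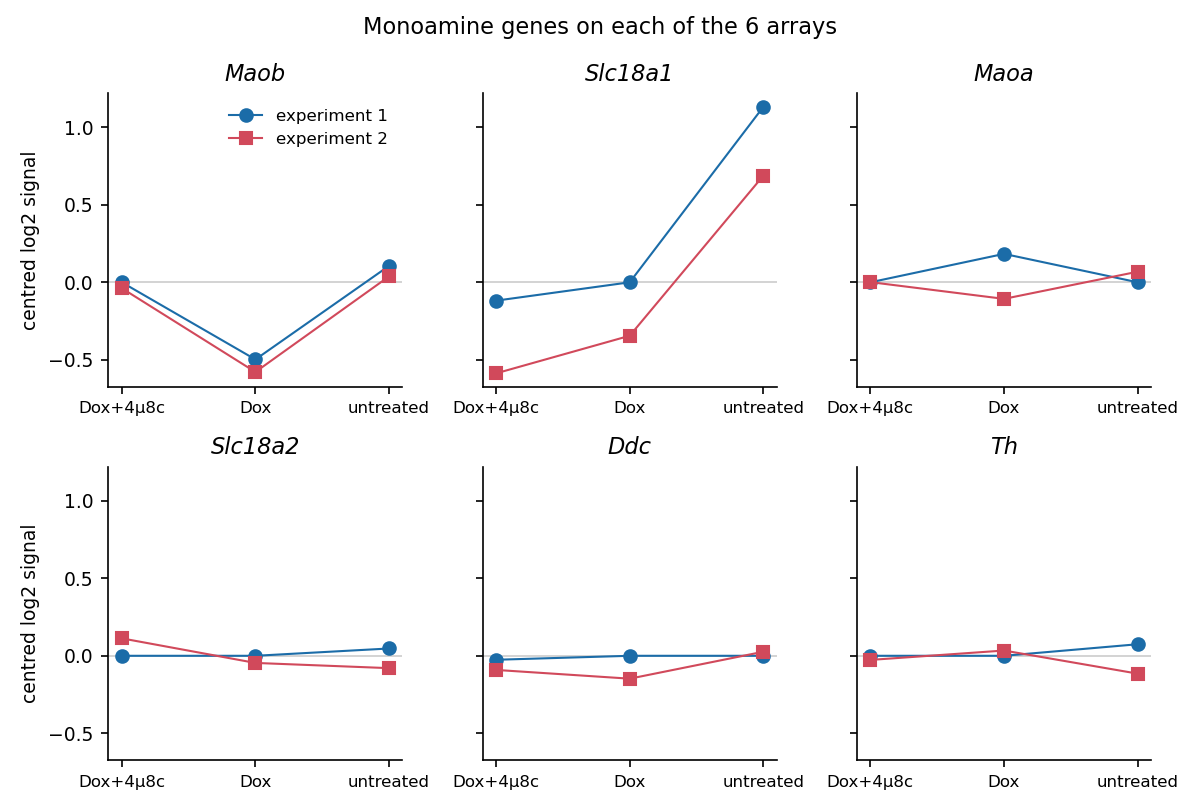
Centred log2 signal (y axis) of the 6 monoamine genes with a probeset, by group (x axis: Dox+4μ8c, Dox, untreated), with experiment 1 as circles and experiment 2 as squares joined by lines. Maob dips to -0.50 and -0.58 with Dox alone, Slc18a1 is highest in untreated cells at 1.13 and 0.69, and the other 4 genes stay between -0.15 and 0.18.

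Neither paralogue of these genes passed the test. Maoa, monoamine oxidase A, had a centred log2 signal of 0.00 and 0.00 with Dox+4μ8c, 0.18 and -0.11 with Dox, and 0.00 and 0.07 in untreated cells. Its Dox value was the highest of the 3 arrays in experiment 1 and the lowest in experiment 2. The log2 change with Dox was 0.00 (SE 0.09, adjusted p = 0.986), with a 95% interval of -0.211 to 0.219. Those with Dox+4μ8c were -0.03 against untreated (adjusted p = 0.89) and -0.04 against Dox (adjusted p = 0.90). On the same arrays, Maob minus Maoa was -0.79 and -0.44 for Dox against untreated and 0.68 and 0.43 for Dox+4μ8c against Dox. The 2 genes lie next to each other on chromosome X on opposite strands in GRCr8, with their 3′ ends facing. Maoa was read by a single probeset of the type whose probes can match more than 1 transcript (1370678_s_at).

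Slc18a2, the VMAT2 gene, was read by 3 probesets. Its centred log2 signal was 0.00 and 0.11 with Dox+4μ8c, 0.00 and -0.05 with Dox, and 0.05 and -0.08 in untreated cells. The order of the groups differed between the experiments, and in experiment 1 the probesets 1369132_at and 1384933_at had the same value on all 3 arrays. The third, 1369131_at, was at 0.00 and 0.25 with Dox+4μ8c, 0.00 and -0.03 with Dox, and 0.14 and -0.13 in untreated cells, with opposite orders in the 2 experiments. The log2 change of the gene with Dox was -0.01 (SE 0.07, adjusted p = 0.97, 95% interval -0.168 to 0.154), and with Dox+4μ8c it was 0.07 against untreated (adjusted p = 0.66) and 0.08 against Dox (adjusted p = 0.70). Slc18a1 minus Slc18a2 was -1.08 and -1.07 for Dox against untreated and -1.20 and -1.47 for Dox+4μ8c against untreated. The interval for Slc18a2 with Dox leaves room for changes within it in either direction. Slc18a1 was picked for its fall, so that the differences between the 2 genes are a description only.

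The synthesis enzymes gave no difference past the test either. Ddc, which makes dopamine and serotonin from their hydroxylated precursors, had a centred log2 signal of -0.03 and -0.09 with Dox+4μ8c, 0.00 and -0.15 with Dox, and 0.00 and 0.03 in untreated cells. The changes against untreated were 0.00 and -0.17 with Dox, a mean of -0.09 (SE 0.06, adjusted p = 0.45, 95% interval -0.225 to 0.052), and -0.03 and -0.12 with Dox+4μ8c, a mean of -0.07 (SE 0.06, adjusted p = 0.61). Its lower value with Dox came from experiment 2 and from the probeset 1375317_at, at -0.27 on Dox replicate 2, the array with the widest spread, against 0.03 in untreated cells. The other probeset, 1368064_a_at, was at -0.02 and 0.02 on these arrays. Th, tyrosine hydroxylase, was at 0.00 and -0.03 with Dox+4μ8c, 0.00 and 0.03 with Dox, and 0.07 and -0.12 in untreated cells. Untreated cells had its highest value in experiment 1 and its lowest in experiment 2, and its change with Dox was 0.04 (SE 0.06, adjusted p = 0.78, 95% interval -0.12 to 0.194), against 0.01 (adjusted p = 0.97) with Dox+4μ8c.

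None of the 4 tested members thus passed the test in any of the 3 comparisons by limma, and none had an unadjusted p under 0.05. Over all genes limma called 4.42% higher and 2.01% lower with Dox than in untreated cells, 1.17% higher and 1.13% lower with Dox+4μ8c than in untreated cells, and 0.175% higher and 1.61% lower with Dox+4μ8c than with Dox. Beside these shares a count of 0 among 4 genes is no result about the members.

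**Figure D2:**
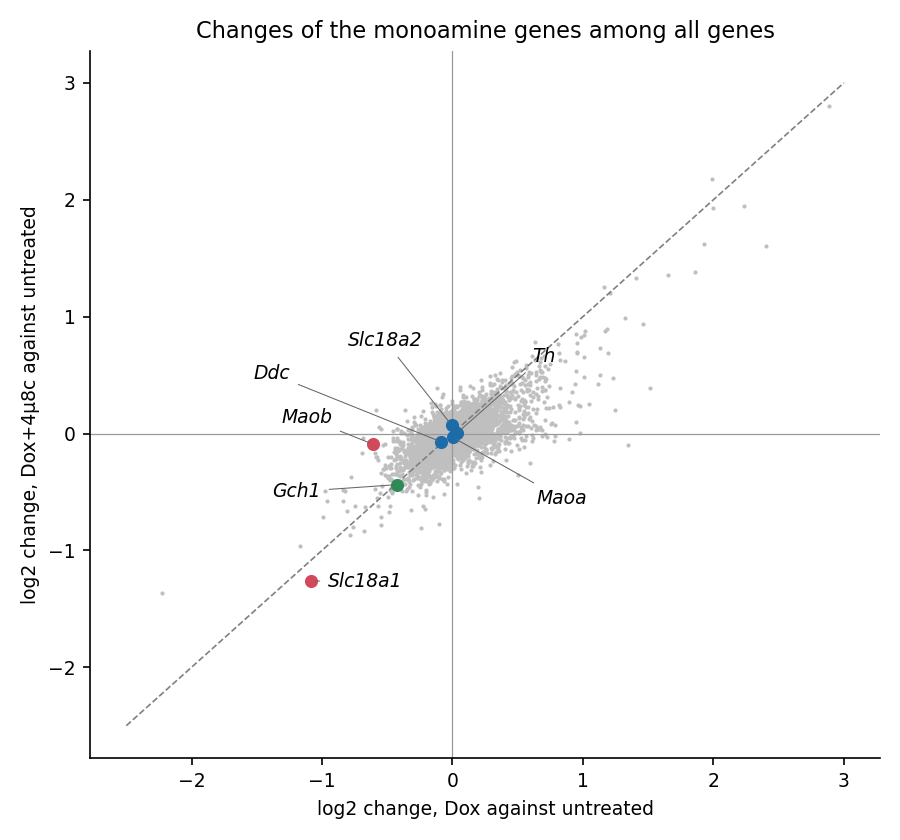
Log2 change with Dox+4μ8c (y axis) against that with Dox (x axis), both relative to untreated cells, as means over both experiments for 12603 genes (grey). Members are in red (picked for their values) and blue, Gch1 in green, and the dashed line marks equal changes. Slc18a1 and Gch1 lie near the line at -1.08 and -0.42 on the x axis, Maob lies above it near 0 on the y axis, and the other members sit within 0.09 of 0 on both axes.

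Beyond the members, 100 genes in 8 lists of related roles were read, and 71 of them were measured. These lists too were chosen with earlier results of these data known. With Dox, 2 of the 71 rose and 5 fell (2.8% and 7.0%, compared with 4.42% and 2.01% of all genes). With Dox+4μ8c against untreated 2 rose and 2 fell (2.8% and 2.8%, compared with 1.17% and 1.13% of all genes). Between Dox+4μ8c and Dox none passed. At an unadjusted p under 0.05 by limma, 4 were higher and 3 lower there, and 1415 of all 12603 genes had such a p in either direction. The median log2 change over the 71 was 0.01 with Dox and 0.00 with Dox+4μ8c, and over all genes it was 0.011 and -0.0018.

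Of 5 genes measured in the cofactor list only Gch1 fell, with Dox and with Dox+4μ8c, compared with 2.01% and 1.13% of all genes. It encodes GTP cyclohydrolase 1, which catalyses the first and rate-limiting step of tetrahydrobiopterin synthesis. Its centred log2 signal was -0.05 and -0.16 with Dox+4μ8c, 0.00 and -0.18 with Dox, and 0.38 and 0.28 in untreated cells. Untreated cells were highest in each experiment, and the order of the 2 groups given Dox differed between experiments. The log2 change was -0.42 with Dox (SE 0.05, adjusted p = 0.0063) and -0.44 with Dox+4μ8c (SE 0.05, adjusted p = 0.0137), with no difference past the test between them. Of the other 4 cofactor genes measured none passed, among them Pts, the next enzyme, at 0.02 with Dox and Qdpr, which regenerates the cofactor, at 0.04. The Dox call of Gch1 was lost without untreated replicate 2, at an adjusted p of 0.056, and that with Dox+4μ8c without the experiment term or without any untreated or Dox+4μ8c array, at an adjusted p of up to 0.20.

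Among genes of plasma membrane uptake, the pair that carries large neutral amino acids, the precursors of monoamines among them, rose. Slc3a2, the heavy chain CD98, had a centred log2 signal of 0.00 and 0.18 with Dox+4μ8c, 0.06 and 0.35 with Dox, and -0.59 and -0.28 in untreated cells, and Slc7a5, the light chain LAT1, 0.00 and 0.16, 0.03 and 0.31, and -0.42 and -0.16 in the same order of groups. For both genes untreated cells were lowest and Dox cells highest in each experiment. With Dox, Slc3a2 rose by 0.64 (SE 0.05, adjusted p = 0.0027) and Slc7a5 by 0.46 (SE 0.05, adjusted p = 0.0063), and with Dox+4μ8c by 0.52 (adjusted p = 0.011) and 0.37 (adjusted p = 0.028) against untreated. These were 2 of 8 genes measured, compared with 4.42% of all genes called higher with Dox and 1.17% with Dox+4μ8c. The 6 other transporters measured did not pass, such as the serotonin transporter gene Slc6a4 at 0.07 with Dox and 0.12 with Dox+4μ8c. Both genes lost their calls without the experiment term (adjusted p of up to 0.17 for Slc3a2 and 0.29 for Slc7a5 over the alternatives), Slc7a5 with Dox also without untreated replicate 1, and both with Dox+4μ8c without any untreated or Dox+4μ8c array.

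The granule proteins that accompany amines and hormones were measured for 7 of 7 genes, and 2 of them fell with Dox, compared with 2.01% of all genes. Vgf, a precursor of secreted peptides, fell by 0.30 with Dox (SE 0.05, adjusted p = 0.016), and Chgb, chromogranin B, fell by 0.24 (SE 0.05, adjusted p = 0.033). With Dox+4μ8c against untreated Vgf was at -0.18 (adjusted p = 0.11 by limma). None of the 7 passed there, and 1.17% of all genes were called higher and 1.13% lower. Chga, chromogranin A, was at -0.09 with Dox (adjusted p = 0.35). The calls of Vgf and Chgb were both lost without either untreated array or either Dox+4μ8c array, and that of Chgb also without Dox replicate 2, at an adjusted p of up to 0.11 and 0.21.

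Of 10 transcription factors of amine-producing cells that were measured, 2 fell with Dox, compared with 2.01% of all genes. Nkx2-2, a homeodomain factor of serotonin neurons and of islets, had a centred log2 signal of 0.00 and -0.15 with Dox+4μ8c, -0.18 and -0.42 with Dox, and 0.30 and 0.15 in untreated cells. In each experiment its order was untreated, then Dox+4μ8c, then Dox. It fell by 0.52 with Dox (SE 0.05, adjusted p = 0.0038) and by 0.30 with Dox+4μ8c (SE 0.05, adjusted p = 0.045), and the 2 groups differed by 0.22 (adjusted p = 0.12). Fev (Pet1), an ETS factor of serotonin neurons that β-cells also use, was at -0.21 and -0.45 with Dox, a mean of -0.33 (SE 0.07, adjusted p = 0.046). The Dox call of Nkx2-2 was lost without the experiment term (adjusted p = 0.052), and its call with Dox+4μ8c and that of Fev were lost in 6 alternatives each, at an adjusted p of up to 0.34 and 0.25.

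The remaining lists held no gene past the test. They were 5 other synthesis enzymes (changes with Dox of -0.248 for Pnmt to 0.11 for Aanat), 7 other breakdown enzymes (-0.02 for Sult1a1 to 0.124 for Aldh1a1), 4 other vesicle transporters (-0.07 for Slc17a7 to 0.192 for Slc18b1) and 25 monoamine receptors (-0.222 for Htr5a to 0.194 for Drd4). At an unadjusted p under 0.05 by limma with Dox, these lists held 0, 0, 1 and 3 genes, compared with 2476 of all 12603 genes. Beside that number these counts are no result about the lists. The receptors with such a p were Drd4, Htr3b and Adra2a. Adra2a, the α2A-adrenergic receptor that lowers insulin secretion, was at -0.21 with Dox (adjusted p = 0.10) and -0.19 with Dox+4μ8c (adjusted p = 0.17). The vesicle transporter gene Slc17a6 was at -0.29 with Dox+4μ8c against untreated (adjusted p = 0.067) and -0.26 against Dox (adjusted p = 0.12), by limma. In each of these comparisons 2 of the 4 vesicle transporters were lower at an unadjusted p under 0.05. Of all genes 1943 and 1415 had such a p in either direction.

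**Figure D3:**
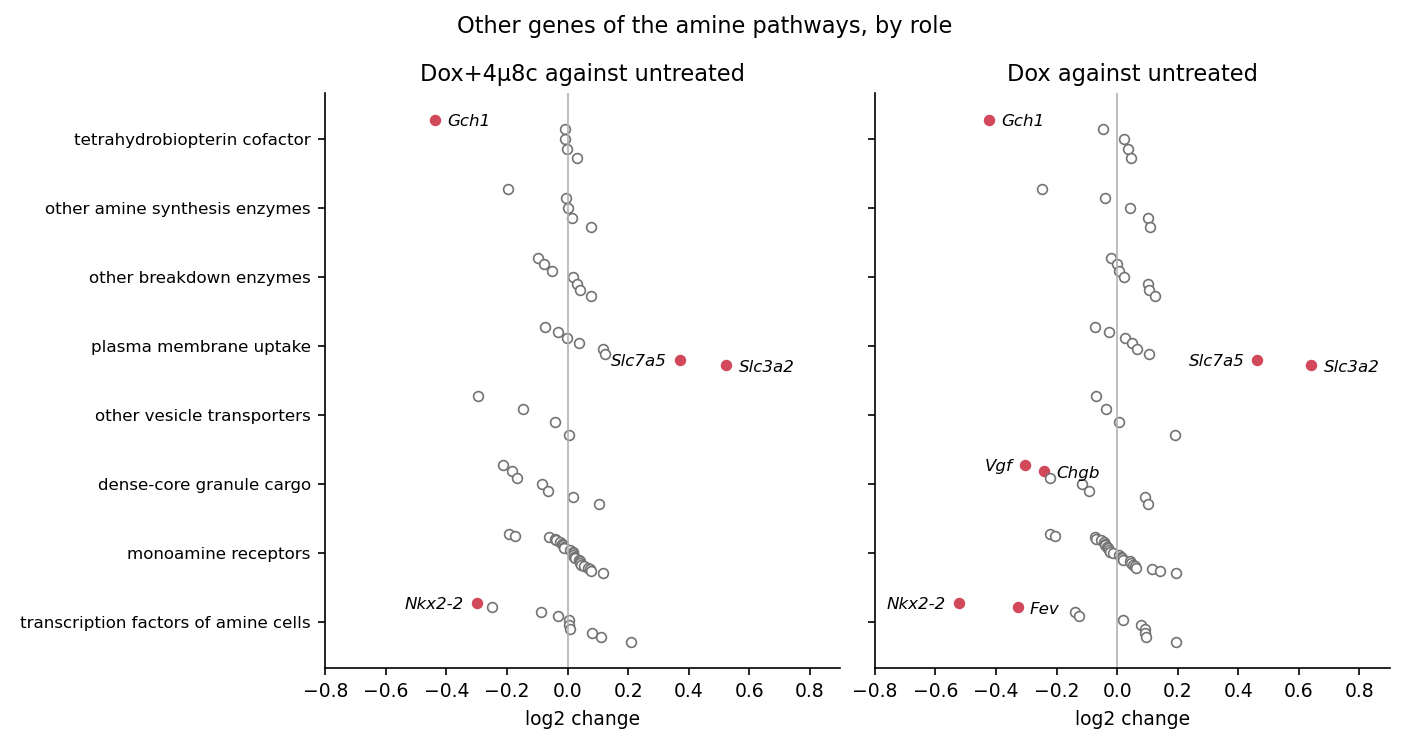
Log2 change (x axis) of the 71 measured genes of related roles, 1 circle per gene in 8 lists (y axis), with Dox+4μ8c on the left and Dox on the right, each against untreated cells and as means over 2 experiments. Filled circles are named and passed the test (adjusted p under 0.05), and Gch1, Slc3a2, Slc7a5 and Nkx2-2 are filled in both panels.

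Some cell type markers also differed between groups, in lists chosen with earlier results of these data known. Of 8 β-cell markers measured, 2 fell with Dox by limma, compared with 2.01% of all genes. They were Mafa, by 0.56 (adjusted p = 0.0090), and Iapp, by 0.25 (adjusted p = 0.041). Mafa differed by 0.62 between Dox+4μ8c and Dox, with the higher value under Dox+4μ8c (adjusted p = 0.019 by limma). Of all genes 0.175% were called higher there. The Dox call of Mafa was lost without untreated replicate 1 (adjusted p = 0.066), its call for Dox+4μ8c against Dox without either Dox+4μ8c array (adjusted p of up to 0.29), and the call of Iapp was lost in 6 of 11 alternatives. With Dox, Neurod1 was at -0.24, Slc2a2 at -0.17, Ins2 at -0.13, Pdx1 at -0.09, Ins1 at -0.03 and Nkx6-1 at 0.09. Nkx6-1 was at 0.28 with Dox+4μ8c against untreated (adjusted p = 0.059 by limma). The medians of the 8 were -0.15 with Dox and 0.00 with Dox+4μ8c against untreated. Of 5 α-cell markers only Gcg passed by limma. It was at -2.22 with Dox (adjusted p = 0.00072) and -1.36 with Dox+4μ8c (adjusted p = 0.0061) against untreated. For Dox+4μ8c against Dox it was at 0.86 (adjusted p = 0.021). The shares of all genes called in these directions were 2.01%, 1.13% and 0.175%. With Dox, Gc was at 0.20, Irx2 at 0.15, Irx1 at 0.03 and Ttr at -0.03, and the median of the list was 0.03. All 3 calls of Gcg were lost without the experiment term (adjusted p of 0.054, 0.21 and 0.52), the last 2 also without Dox+4μ8c replicate 1 (0.095 and 0.099) and the last without Dox+4μ8c replicate 2 (0.35). Of 6 markers of enterochromaffin or adrenal chromaffin cells only Tac1 passed by limma. It rose by 0.44 with Dox (adjusted p = 0.0055) and by 0.43 with Dox+4μ8c (adjusted p = 0.015). Of all genes 4.42% and 1.17% were called higher in these comparisons. With Dox, Pnmt was at -0.25, Npy at -0.19, Chga at -0.09, Dbh at 0.04 and Hand2 at 0.08, and the median of the list was -0.03. The Dox call of Tac1 was lost without the experiment term (adjusted p = 0.082) and without untreated replicate 2 (0.051), and its call with Dox+4μ8c in 5 of 11 alternatives (adjusted p of up to 0.19). Ppy was the only one measured of 4 markers of δ- and PP-cells, at 0.13 and 0.15. Because the values are relative, summed levels of these lists cannot be given. The part of these markers in the changes of Maob and Slc18a1 was not tested.

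The genes nearest to Maob over the 4 changes against untreated (Dox and Dox+4μ8c, in each of 2 experiments) were Gulp1, Bcam, Kcnip1, Pim2 and Car8, with root mean square differences from Maob of 0.055, 0.075, 0.085, 0.103 and 0.113 on the log2 scale. The median over all genes was 0.449, and Slc18a1 was at 0.893. Gulp1, an engulfment adaptor, was at -0.58 and -0.61 with Dox and Pim2, a serine/threonine kinase, at -0.57 and -0.58. With Dox+4μ8c Gulp1 was at -0.17 and -0.16 and Pim2 at -0.20 and -0.25. The genes nearest to Slc18a1 were Stc1, Mgarp, C2cd4a, Fam151a and Ak4, at 0.291, 0.360, 0.393, 0.412 and 0.416. None came as close to Slc18a1 as the 5 others did to Maob. Only 2 genes were lower than Slc18a1 with Dox and 1 with Dox+4μ8c against untreated, so that few genes could lie near it. For Stc1, the gene of the hormone stanniocalcin, the changes were -1.03 and -1.31 with Dox and -0.76 and -1.16 with Dox+4μ8c. The 5 genes nearest to Slc18a1 were at -0.70 or below in all 4 changes but for Fam151a and Ak4, which reached -0.67 and -0.56.

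**Figure D4:**
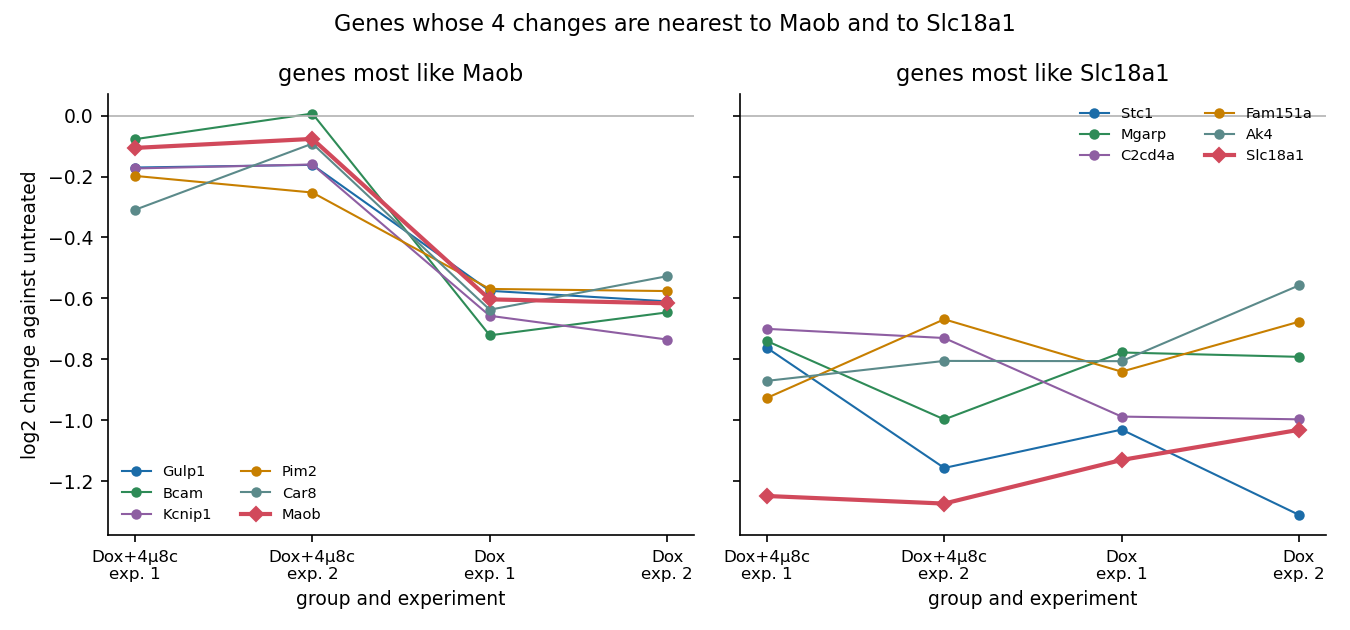
Log2 change against untreated cells (y axis) in the 4 pairs of group and experiment (x axis) for Maob (left, diamonds) and Slc18a1 (right, diamonds) and the 5 genes nearest to each (circles). The genes on the left are between -0.74 and -0.53 with Dox and between -0.31 and 0.01 with Dox+4μ8c, and those on the right are at -0.56 or below throughout.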

How the data were processed

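Total RNA (200 ng per sample) was labelled with a 3′ IVT kit and hybridised to Affymetrix rat arrays. The authors deposited log2 values made with RMA (version not given in the sources used here), which corrects background, normalizes and summarises probesets. The median over the 3 arrays of a replicate number was 0 in 100% of 25476 probesets for replicate 1 and in 0.84% for replicate 2, so the replicates have different zero points. The labels give Dox at 4 μg/ml, and the methods give a lower dose. Probesets with 1 symbol (17978, by GEO's platform annotation) were averaged per gene. Left out were 52 controls, 7068 probesets without a symbol and 378 with several. Genes were tested in limma 3.58.1 (R 4.3.3; lmFit, eBayes, two-sided, 3 groups plus experiment, 2 residual and 4.25 prior degrees of freedom, Benjamini-Hochberg over 12603 genes). The code had been checked on simulated data with known changes. The replicate number served as a block because the methods describe 2 independent experiments and the zero point of the values differs between them. The number of arrays limits the precision. Named genes were drawn from the members, list genes past the test or among the 3 smallest p of a list, and the 5 genes nearest to Maob and to Slc18a1. Also named were genes at the ends of the range of some lists, the measured cell type markers and the genes nearest to the 1.5 fold threshold. The members and lists were chosen with earlier results of these data known. Python 3.11.15, pandas 2.3.3, numpy 2.4.6 and matplotlib 3.10.9 made counts and figures. Alternatives are given in the closing section.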

Additional observations from a re-analysis of the deposited data

How the results depend on the processing

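Maob and Slc18a1 kept their direction in all 3 comparisons under each of 13 alternatives. For Dox against untreated the changes lay between -0.62 and -0.60 (Maob) and between -1.14 and -1.03 (Slc18a1). For Dox+4μ8c against untreated they lay between -0.11 and -0.07, and -1.30 and -1.22, in the same order of genes. For Dox+4μ8c against Dox they lay between 0.50 and 0.54, and -0.24 and -0.12. Many of these alternatives could not move either gene, because each was read by 1 probeset. The Dox change of Maob was -0.6096 without the replicate block, with the median over probesets and with single probesets tested. Both genes were picked for these values, so that the kept directions are no support for them. Maoa, Slc18a2, Ddc and Th passed the test under no alternative (lowest adjusted p = 0.152, by limma, for Maoa without Dox replicate 1). With each array centred on its median the Dox change of Maoa was -0.0029, and with the median over probesets that of Slc18a2 was 0.021. With 1 array left out, the changes with Dox, with Dox+4μ8c against untreated and with Dox+4μ8c against Dox lay between -0.158 and 0.166, -0.140 and 0.073, and -0.200 and 0.125 for Maoa, -0.087 and 0.073, -0.027 and 0.172, and -0.020 and 0.179 for Slc18a2, and -0.059 and 0.134, -0.090 and 0.104, and -0.101 and 0.041 for Th. For Ddc the last lay between -0.049 and 0.079. Over all genes limma called 810 with Dox, 290 with Dox+4μ8c and 225 between the 2. Without the replicate block these were 440, 0 (2083 at an unadjusted p under 0.05) and 143. With single probesets tested the last 2 were 124 and 0 (2192 at an unadjusted p under 0.05). The 810 became 239 and 284 without untreated replicates 1 and 2, 427 without either Dox+4μ8c array and 1759 without Dox replicate 1. The 290 became 19 and 63 without untreated replicates 1 and 2, 11 and 20 without Dox+4μ8c replicates 1 and 2 and 712 without either Dox array. The 225 became 0 without Dox+4μ8c replicate 1 or 2 (1432 and 595 at an unadjusted p under 0.05) and 905 without Dox replicate 1. Leaving out the 2285 genes tied on all arrays of experiment 1, an alternative chosen after seeing the data, gave 926, 351 and 261. In each such fit the remaining array of the reduced group was assumed to vary like those of the other groups.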
